A study of Mus musculus with 6 samples.

Results

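*Gas7* and 9 relatives that encode F-BAR proteins were examined in cultured neural stem cells (NSCs) with and without the microRNA miR-151. The members were found by their listed symbols, and these 10 genes are among the 32493 genes counted. The list was chosen by results of this same contrast, in which *Gas7* was among the genes higher in cko, together with relatives of its family. The members went through the same fit as all other genes, but a call on them is given only as a description, with no p-value and as no support, since the choice of the list used this contrast.

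The cells came from the lateral ventricles of C57BL/6J embryos at E14.5 and were cultured for 3 generations before RNA-seq. The cko embryos were miR-151 fl/fl; Emx1-IRES-Cre, in which Cre is made in the dorsal telencephalon. The ctrl embryos were miR-151 fl/fl without Cre, so that both genotypes carried the floxed allele. No age other than E14.5 and no treatment differs between them in the labels, which call the ctrl genotype wild type. Of 3 ctrl and 3 cko columns, that of ctrl 2 is the rounded-up mean of ctrl 1 and ctrl 3 in 32493 of 32493 genes and was counted in no n, which left 2 ctrl and 3 cko libraries. The methods speak in general terms of several embryos per experiment, but neither they nor the labels tie these libraries to separate embryos or cultures, so the p-values given for other genes measure only the spread between these libraries, which may be technical.

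F-BAR domains form curved dimers that lie on the inner face of a membrane and bend it, and most F-BAR proteins carry further domains that recruit actin regulators or dynamin to that site. Members of the Toca group (*Fnbp1*, *Fnbp1l*, *Trip10*) bind Cdc42 and N-WASP and act in endocytosis and in the growth of actin-rich protrusions. Slit-Robo GTPase-activating proteins (*Srgap1*, *Srgap2*, *Srgap3*) have an inverse F-BAR domain that pushes membranes outward, and are known for shaping protrusions and migration of cortical neurons. Pacsins (*Pacsin1*, *Pacsin2*, *Pacsin3*, also called syndapins) bind dynamin and N-WASP, with *Pacsin1* used mainly by neurons. *Gas7* was first found in growth-arrested fibroblasts and is known for promoting neurite outgrowth.

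In GENCODE M21 on GRCm38, *Gas7* (ENSMUSG00000033066) lies on the plus strand at chr11:67455437-67688990, *Fnbp1* (ENSMUSG00000075415) on the minus strand at chr2:31026206-31142008, *Srgap3* (ENSMUSG00000030257) on the minus strand at chr6:112717971-112947266 and *Pacsin3* (ENSMUSG00000027257) on the plus strand at chr2:91255954-91264679. All 10 members are annotated as protein coding, with 2 to 14 coding transcripts each, and counts were summed over the whole gene, so isoforms cannot be told apart. No 50-base stretch of exon sequence is shared between members, and 0% to 1.45% of such stretches are shared with any other counted gene. *Gas7* shares 66 exon bases, 0.582% of its exon length, with *Glp2r* on the opposite strand. *Glp2r*, a peptide hormone receptor gene, had 4 and 6 counts in ctrl and 23, 31 and 28 in cko, against 952 to 3703 counts of *Gas7*. *Srgap1* shares 1.44% of its exon bases with Gm48804 and *Srgap3* 1.52% with Gm44081, which had at most 67 and 5 counts in any library.

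One promoter window of each of the 3 members with lower calls in cko is shown, at the first start listed, so that the bases around their start sites can be read beside their levels. RefSeq windows (GRCm38.p6, 250 bases before to 50 after the start) were available for 9 of the 10 members, in 13 windows. *Gas7* has none here. Capitals mark the GC box GGGCGG on either strand (its complement reads CCGCCC), the letters bound by Sp family factors.
Fnbp1, chr2:31141959-31142258, minus strand: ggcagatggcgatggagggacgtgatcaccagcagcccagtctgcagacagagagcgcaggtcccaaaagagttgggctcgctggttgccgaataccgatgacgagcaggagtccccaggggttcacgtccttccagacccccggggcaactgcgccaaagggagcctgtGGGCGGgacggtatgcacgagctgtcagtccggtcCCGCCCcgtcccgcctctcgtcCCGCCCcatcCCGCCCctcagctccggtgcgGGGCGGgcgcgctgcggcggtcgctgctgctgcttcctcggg
Srgap3, chr6:112947217-112947516, minus strand: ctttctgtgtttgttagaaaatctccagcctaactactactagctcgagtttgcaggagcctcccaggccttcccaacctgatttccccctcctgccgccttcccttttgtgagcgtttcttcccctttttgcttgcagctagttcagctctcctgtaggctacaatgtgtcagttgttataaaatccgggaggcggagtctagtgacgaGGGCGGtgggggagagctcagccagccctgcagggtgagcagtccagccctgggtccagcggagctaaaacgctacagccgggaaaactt
Pacsin3, chr2:91256563-91256862, plus strand: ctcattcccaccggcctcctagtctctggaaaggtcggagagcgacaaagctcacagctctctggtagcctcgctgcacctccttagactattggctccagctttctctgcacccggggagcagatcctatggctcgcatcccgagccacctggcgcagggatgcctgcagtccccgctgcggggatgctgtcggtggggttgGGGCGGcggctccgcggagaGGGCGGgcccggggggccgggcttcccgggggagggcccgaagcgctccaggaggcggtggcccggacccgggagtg
The *Fnbp1* window shown held 5 GC boxes and 29 CG dinucleotides, more CGs than 87.1% of all RefSeq promoter windows. Another *Fnbp1* window, at chr2:31096451-31096750, held 0 GC boxes and 8 CGs, more than 51.4% of all windows, so the starts of this gene differ widely. The *Pacsin3* window shown held 2 GC boxes, 24 CGs and 1 CCAAT box, and another at chr2:91257079-91257378 held 2 GC boxes, 12 CGs and 0 CCAAT boxes. The *Srgap3* window held 1 GC box, 10 CGs and the only TATA box (TATAAA) among the 13 windows. A GC box was found in 10 of the 13 windows, against 35.7% of 32851 RefSeq promoters. CCAAT was found in 4 windows (37.4% of all), TATAAA in 1 (13.6% of all) and TTTGAA, the letters of the cell cycle element CHR, in 1 *Trip10* window (17.9% of all), each on either strand. A match describes letters only.

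The 5 libraries held 17883796 to 23335736 counts, and 3 counts correspond to 0.129 to 0.168 normalized CPM, the count scaled to a fixed library total after TMM normalization. A gene was called higher or lower at a Benjamini-Hochberg adjusted p under 0.05 over all 16710 genes tested in edgeR's quasi-likelihood test. *Mir151* itself was not counted, so the deleted gene could not check the labels. Of 8 NSC and radial glia markers, all tested, *Hes5* (log2 fold change 0.93, adjusted p = 0.00108) and *Nes* (0.98, adjusted p = 0.00287) rose in edgeR. *Slc1a3* fell (-0.79, edgeR adjusted p = 0.00639), a call lost without cko replicate 2 (-0.76). The summed level of the 8 markers was 8341 and 7314 normalized CPM in ctrl and 9334, 8698 and 8570 in cko, higher in every cko library.

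All 10 members passed the filter on low counts, and 6 of them were not called. *Gas7* was the 1 member called higher, in a table where 7.86% of tested genes were called higher. *Fnbp1*, *Srgap3* and *Pacsin3* were the 3 called lower, where 8.57% of tested genes were. Because the list was chosen by this contrast, nothing is read from these shares. The median log2 fold change of the 10 members was -0.18, against -0.0026 over all tested genes, with 3 members above 0 and 7 below. By the limits of the study, an unadjusted p under 0.01 with a log2 fold change over 0.9 in size, *Gas7* (2.39% of tested genes were called higher) and *Pacsin3* (4.17% lower) remained.

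*Gas7* stood at 42.6 and 50.8 normalized CPM in ctrl 1 and ctrl 3 and at 149, 159 and 154 in cko 1, cko 2 and cko 3. All 3 cko libraries were well above both ctrl libraries, and the cko values lay closer together than the ctrl pair. The mean was 46.7 ± 5.80 normalized CPM (SD, n = 2) in ctrl and 154 ± 4.73 (SD, n = 3) in cko, 3.30 times the ctrl mean. The log2 fold change was 1.72 ± 0.0977 (SE), while ctrl 1 and ctrl 3 differed from each other by -0.25 on the log2 scale and the highest and lowest cko by 0.09. It ranged from 1.59 without ctrl replicate 1 to 1.86 without ctrl replicate 3.

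**Figure D1:**
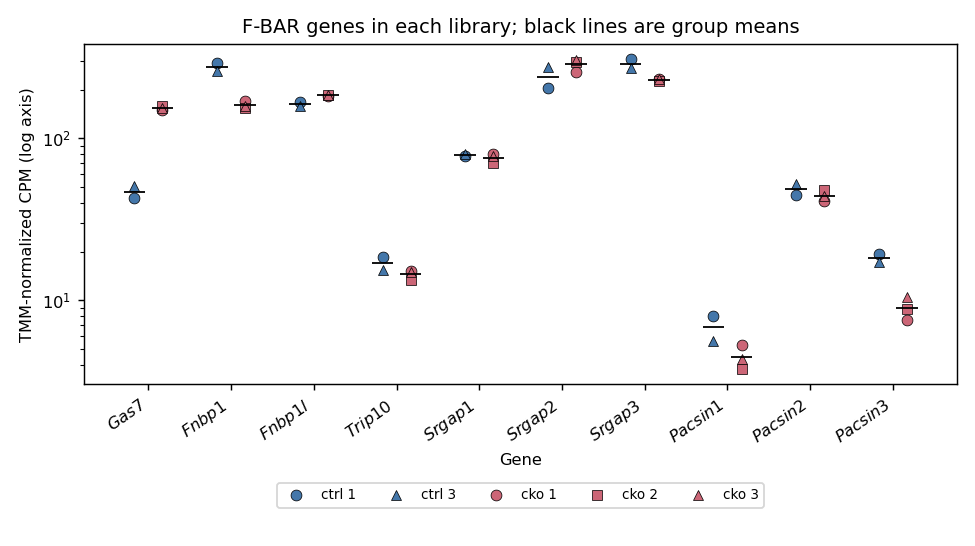
Normalized CPM (log axis) of the 10 F-BAR genes in each of the 5 libraries used, ctrl in blue and cko in red, with black lines at the group means. The 3 cko libraries of *Gas7* sit between 149 and 159, above both ctrl libraries at 42.6 and 50.8, while *Fnbp1*, *Srgap3* and *Pacsin3* sit lower in cko and *Srgap1*, *Srgap2* and *Pacsin2* overlap.

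In the Toca group, *Fnbp1* was called lower in cko, and its paralog *Fnbp1l* and *Trip10* were not called. *Fnbp1*, which encodes the Cdc42-binding protein FBP17, stood at 292 and 259 normalized CPM in ctrl 1 and ctrl 3 and at 170, 155 and 159 in cko 1, 2 and 3. No cko library reached the lower ctrl library. The means were 276 ± 23.6 (SD, n = 2) and 161 ± 7.88 (SD, n = 3), with a log2 fold change of -0.77 ± 0.0842 (SE), short of the log2 limit of the study. *Fnbp1l*, which encodes Toca-1, an activator of N-WASP, stood at 167 and 159 normalized CPM in ctrl and 182, 187 and 185 in cko. The genotypes did not overlap but the difference was small, with a log2 fold change of 0.18 ± 0.0692 (SE), and it was not called. *Trip10*, which encodes the Cdc42-interacting protein CIP4, stood at 18.5 and 15.4 normalized CPM in ctrl and 15.1, 13.4 and 14.9 in cko, and was not called (log2 fold change -0.23 ± 0.137, SE). Its highest cko library lay just under its lower ctrl library, and the ctrl libraries differed from each other by 0.27 on the log2 scale.

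Of the Slit-Robo GTPase-activating protein genes, only *Srgap3* was called. *Srgap3* stood at 307 and 270.5 normalized CPM in ctrl 1 and ctrl 3 and at 232, 227 and 232 in cko. The ctrl libraries were both above all cko libraries, and the log2 fold change was -0.33 ± 0.0800 (SE). This call is not firm: without cko replicate 1, 2 or 3 the values were -0.34, -0.32 and -0.34 and the gene was not called. *Srgap2*, known for roles in the maturation of dendritic spines and in neuronal migration, stood at 204 and 275 normalized CPM in ctrl and 259, 295 and 306 in cko. The groups overlapped, with ctrl 3 above cko 1. The log2 fold change was 0.26 ± 0.137 (SE), not called, while ctrl 1 and ctrl 3 differed by -0.43 on the log2 scale. It was 0.05 without ctrl replicate 1, and 0.49 with a call as higher without ctrl replicate 3, so its size and its call depended on which ctrl libraries were used. *Srgap1* stood at 78.0 and 79.6 normalized CPM in ctrl and 79.6, 70.8 and 77.4 in cko, with overlapping groups and a log2 fold change of -0.05 ± 0.0805 (SE), not called.

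The pacsins were all lower in cko by their mean, but only *Pacsin3* was called. *Pacsin3* stood at 19.3 and 17.2 normalized CPM in ctrl 1 and ctrl 3 and at 7.55, 8.79 and 10.5 in cko 1, 2 and 3. Every cko library was under both ctrl libraries, and the cko mean was 0.491 times the ctrl mean, from 18.2 ± 1.5 (SD, n = 2) to 8.96 ± 1.49 (SD, n = 3). The log2 fold change was -1.02 ± 0.167 (SE), and without cko replicate 2 it was -1.02 and not called. *Pacsin2*, the widely expressed pacsin that also acts at caveolae, stood at 44.9 and 52.1 normalized CPM in ctrl and 40.9, 47.9 and 44.0 in cko, with overlapping groups (log2 fold change -0.13 ± 0.105, SE, not called). *Pacsin1* was the least abundant member, with 183 and 105 counts in ctrl and 95, 88 and 95 in cko. That is 7.99 and 5.60 normalized CPM against 5.32, 3.77 and 4.37, with a log2 fold change of -0.61 ± 0.239 (SE), not called. Without ctrl replicate 3 the value was -0.84 and the gene was called lower.

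In all, 2 members had every cko library above both ctrl libraries (*Gas7*, *Fnbp1l*), where 25.4% of tested genes did. The reverse held for 5 members (*Fnbp1*, *Trip10*, *Srgap3*, *Pacsin1*, *Pacsin3*), where 24.3% of tested genes did, and 3 members overlapped. Within cko the libraries agreed most for *Fnbp1l*, with a coefficient of variation of 1.34%, and least for *Pacsin1*, with 17.4%.

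**Figure D2:**
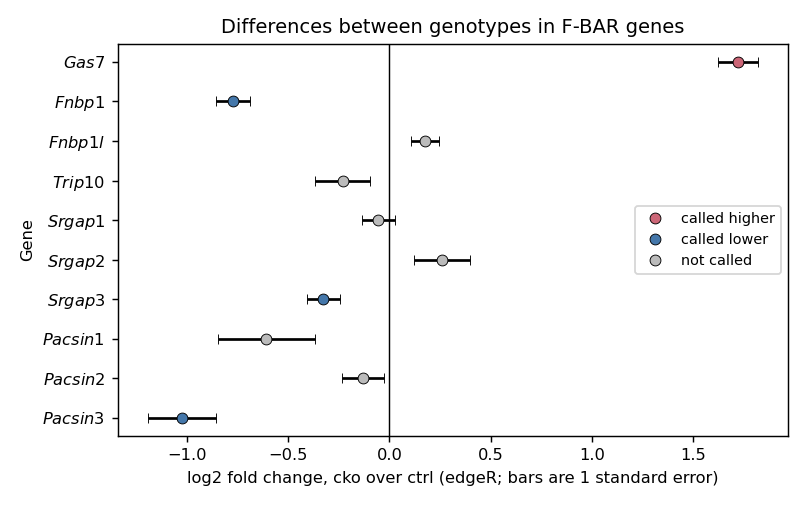
Fitted log2 fold change, cko over ctrl, of the 10 F-BAR genes with bars of 1 standard error (edgeR, 2 ctrl and 3 cko libraries). *Gas7* lies at 1.72, *Pacsin3* at -1.02, *Fnbp1* at -0.77 and *Srgap3* at -0.33, and the 6 grey genes were not called.

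Levels were compared between genes as normalized CPM per kilobase of exon. In ctrl, *Srgap3* had the highest level per length (29.3 ± 2.63, SD, n = 2), followed by *Fnbp1* (27.5 ± 2.35), *Srgap2* (19.1 ± 4.01), *Fnbp1l* (13.2 ± 0.434), *Pacsin2* (9.88 ± 1.04), *Srgap1* (8.63 ± 0.123), *Trip10* (5.33 ± 0.701), *Pacsin3* (4.22 ± 0.348), *Gas7* (4.12 ± 0.512) and *Pacsin1* (1.04 ± 0.259). The ranges of *Srgap3* and *Fnbp1* overlapped in ctrl, although *Srgap3* was the higher in both libraries (31.2 against 29.1, and 27.5 against 25.8). *Pacsin3* and *Gas7* exchanged places between the ctrl libraries, at 4.46 against 3.76 in ctrl 1 and 3.97 against 4.48 in ctrl 3, so their order is not settled. In cko, *Gas7* stood at 13.6 ± 0.417 (SD, n = 3) per kilobase, the fifth of the 10 where it had been the ninth, below *Fnbp1l* at 14.9 ± 0.199 and above *Pacsin2* at 9.02 ± 0.713. *Srgap3* (23.4 ± 0.328) and *Srgap2* (22.8 ± 1.98) led in cko, with *Srgap3* the higher in cko 1 and *Srgap2* in cko 2 and cko 3, ahead of *Fnbp1* at 16.1 ± 0.785.

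Summed per length, the 10 members came to 123 and 121.5 in ctrl and 113, 115 and 118 in cko, in normalized CPM per kilobase. The cko sums per length were all somewhat lower, although *Gas7* was higher within them. Without division by length the sums overlapped, at 1182 and 1185 normalized CPM in ctrl and 1141, 1167 and 1188 in cko. The 13 other F-BAR genes listed below, outside these sums, came to 508 and 491 in ctrl and 579.5, 565 and 583 in cko. *Gas7* made up 3.05% and 3.68% of the per-length sum of the 10 members in ctrl and 11.6%, 12.1% and 11.6% in cko. The other 9 members together came to 118 ± 1.55 (SD, n = 2) in ctrl and 102 ± 1.92 (SD, n = 3) in cko. The Toca group's share was 39.4% and 35.8% in ctrl and 32.1%, 30.1% and 30.2% in cko. The pacsins' share was 12.1% and 12.7% in ctrl and 9.61%, 10.7% and 10.3% in cko, both without overlap. Of single tested genes, 24.3% were lower in cko without overlap. Both groups hold a member called lower, *Fnbp1* or *Pacsin3*, and share their total with the higher *Gas7*, so nothing is read from these shares. The Srgap share overlapped, at 45.5% and 47.8% in ctrl and 46.7%, 47.0% and 48.0% in cko.

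**Figure D3:**
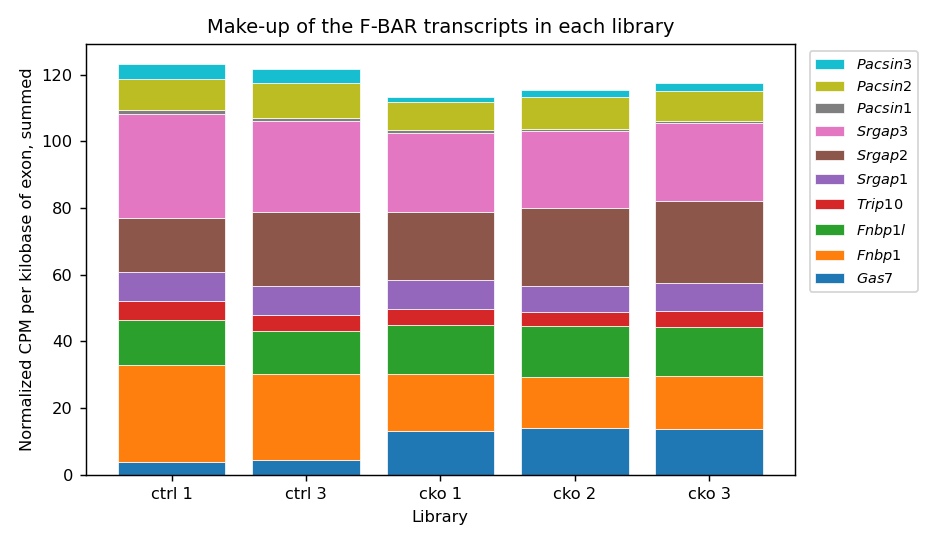
Normalized CPM per kilobase of exon of each of the 10 F-BAR members, stacked for each of the 5 libraries, so that bar height is the sum of these 10. The blue *Gas7* segment at the base is 3.05% and 3.68% of the bar in ctrl and 11.6% to 12.1% in cko, while the orange *Fnbp1* segment above it is shorter in cko.

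Ratios within a library do not depend on the scaling between libraries. *Gas7* stood at 0.129 and 0.173 of the *Fnbp1* level per length in ctrl 1 and ctrl 3, and at 0.776, 0.906 and 0.858 of it in cko. *Fnbp1l* was at 0.463 and 0.499 of the *Fnbp1* level in ctrl and at 0.866, 0.976 and 0.942 of it in cko. *Srgap2* was at 0.521 and 0.798 of *Srgap3* in ctrl and at 0.873, 1.02 and 1.03 in cko. *Pacsin2* was at 2.05 and 2.68 times *Pacsin3* in ctrl and at 4.77, 4.80 and 3.69 times in cko. None of these ratios overlapped between genotypes, and they describe the same counts as the differences above. In each pair the second gene, *Fnbp1*, *Srgap3* or *Pacsin3*, was a member called lower in cko, so the choice of pairs favoured such a separation. Of single tested genes, 25.4% were without overlap higher in cko and 24.3% lower. The share of other gene pairs that separate was not computed, and nothing is read from these ratios.

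Other F-BAR genes, other genes with BAR domains and genes of proteins that F-BAR proteins work with were taken from 6 lists picked by function. These partner genes were 85 in all, of which 80 could be tested. *Arhgap45*, *Bin2*, *Was*, *Rac2* and *Slit3* were removed by the filter on low counts. Of the 80, 6 were called higher (7.5%, beside 7.86% of all tested genes) and 17 lower (21.2%, beside 8.57%), and 57 were not called. Their median log2 fold change was -0.10. The other F-BAR genes, 12 of the 80, held 3 of the 6 higher calls and 0 of the 17 lower. The share called higher over the 6 lists together is near that of all genes, and no test of the lists was run. The lists were picked with earlier results of these data known, so these shares and the p-values below are given only as a description.

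Of the 12 other F-BAR genes tested, 3 were called higher and 0 lower by edgeR, with a median log2 fold change of 0.08. At an unadjusted p under 0.05 edgeR had 3 lower, and DESeq2 called 1 lower. *Fchsd2*, which promotes actin assembly at clathrin-coated pits, rose in cko, with 209 ± 15.7 normalized CPM (SD, n = 2) in ctrl against 304 ± 7.82 (SD, n = 3), by 0.54 ± 0.0797 (SE) on the log2 scale (edgeR adjusted p = 0.00601), the same way in all 3 cko libraries. *Nostrin*, which traffics endothelial nitric oxide synthase, was near the floor, with 2 and 5 counts in ctrl and 13, 29 and 20 in cko (edgeR adjusted p = 0.0316). The kinase gene *Fer*, named after its values were seen, had a log2 fold change of 0.33 (edgeR adjusted p = 0.0439). The calls of *Nostrin* and *Fer* were lost without ctrl replicate 1 (log2 fold change 1.83 and 0.27) and without any 1 cko replicate (2.23 to 2.62 and 0.31 to 0.34). Of the 16 N-BAR and I-BAR genes, whose domains bend membranes more tightly or outward, 0 were called higher (1 at an unadjusted p under 0.05 in edgeR, and 1 called by DESeq2) and 2 lower. The lower ones were *Sh3gl3*, an endophilin, which went from a mean of 38.1 down to 15.7 normalized CPM (log2 fold change -1.28, edgeR adjusted p = 0.000954), and *Sh3glb2*, which fell from 91.0 to 54.4 (-0.74, edgeR adjusted p = 0.00229).

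Among the 22 tested genes of N-WASP, WAVE and Arp2/3, which nucleate branched actin, 1 was called higher and 6 lower, with a median log2 fold change of 0.05. *Wasl*, which encodes N-WASP, the common target of Gas7, the Toca group and the pacsins, stood at 128 and 133 normalized CPM in ctrl and 113, 101 and 106 in cko (log2 fold change -0.29 ± 0.0773, edgeR adjusted p = 0.0408). Its call was lost without ctrl replicate 3 (-0.26), cko replicate 2 (-0.27) or cko replicate 3 (-0.30). The WAVE genes *Wasf2* (-0.41, edgeR adjusted p = 0.00968) and *Cyfip2* (-0.57, edgeR adjusted p = 0.0176) fell, and the Arp2/3 subunit gene *Arpc3* rose (0.42, edgeR adjusted p = 0.0150). All 7 calls of the list were lost without cko replicate 2 or 3, and 3 genes were called lower without ctrl replicate 3. *Wasf2*, *Cyfip2* and *Arpc3* stood at -0.43, -0.53 and 0.37 without cko replicate 2 and at -0.43, -0.54 and 0.43 without cko replicate 3, settings in which 317 and 336 of all genes were called higher in place of 1314.

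Of 15 tested small GTPase and formin genes, 1 was called higher and 3 lower (6 lower without ctrl replicate 1). *Cdc42*, the GTPase that the Toca group binds, stood at 337 and 368 normalized CPM in ctrl and 390, 375 and 373 in cko and was not called (log2 fold change 0.11 ± 0.0765, edgeR adjusted p = 0.382). Its relative *Rhoj* fell, with 15.3 ± 1.03 normalized CPM (SD, n = 2) in ctrl against 4.88 ± 1.20 (SD, n = 3) in cko (-1.65, edgeR adjusted p = 0.00376). The formin genes moved both ways: *Daam2* fell (-2.00 ± 0.304, edgeR adjusted p = 0.00673) from ctrl values of 169 and 82.4 normalized CPM, and *Diaph3*, a formin of dividing cells, rose from 12.2 to 23.8 (0.96, edgeR adjusted p = 0.00604). *Cobl*, an actin nucleator that Pacsin1 binds, was low at 2.05 and 1.76 normalized CPM in ctrl and 0.280, 1.37 and 0.643 in cko and was not called (-1.28 ± 0.540, edgeR adjusted p = 0.150), though it was called lower with no filter (-1.28) and with the replicate block (-2.04).

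Dynamin and EHD genes, with the caveolar coat genes listed beside them, had 5 of 10 genes called lower and 1 higher, and a median log2 fold change of -0.37. *Dnm1*, the neuronal dynamin that pacsins bind, stood at 32.5 and 54.3 normalized CPM in ctrl and 15.7, 19.4 and 20.7 in cko (log2 fold change -1.22 ± 0.217, edgeR adjusted p = 0.0116), and its call was lost without cko replicate 2 (-1.26). *Dnm3* fell from 85.1 to 52.5 normalized CPM (-0.70, edgeR adjusted p = 0.00263), and the ubiquitous *Dnm2* was not called (-0.08, edgeR adjusted p = 0.455). *Cavin1*, a coat protein gene of caveolae, fell from 35.4 to 12.1 (-1.54, edgeR adjusted p = 0.00739). *Ehd2*, which stabilises caveolae, rose from 22.7 to 34.2 (0.59, edgeR adjusted p = 0.0151), a call lost without cko replicate 2 (0.54) or 3 (0.56). The caveolin genes *Cav1* (-1.27 and -1.41) and *Cav2* (-0.51 and -0.52) lost their lower calls in the same settings, so that the list had 2 lower and 0 higher calls without cko replicate 2 and 3 lower and 0 higher without cko replicate 3.

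Of the 5 tested Robo and Slit genes, *Robo1* was the 1 called (2 were called lower without ctrl replicate 1, and 2 without ctrl replicate 3), and 0 of the 5 had a log2 fold change above 0. *Robo1*, a receptor to which the Srgap proteins bind, stood at 140 and 141 normalized CPM in ctrl and 87.7, 73.5 and 75.4 in cko (log2 fold change -0.83 ± 0.0924, edgeR adjusted p = 0.00251). *Robo2* stood at 113 and 61.5 in ctrl and 86.7, 79.2 and 69.8 in cko, and was not called (-0.15, edgeR adjusted p = 0.693). The *Robo2* value was 0.34 without ctrl replicate 1 and -0.52, called lower, without ctrl replicate 3, so its sign rests on which ctrl library is used.

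**Figure D4:**
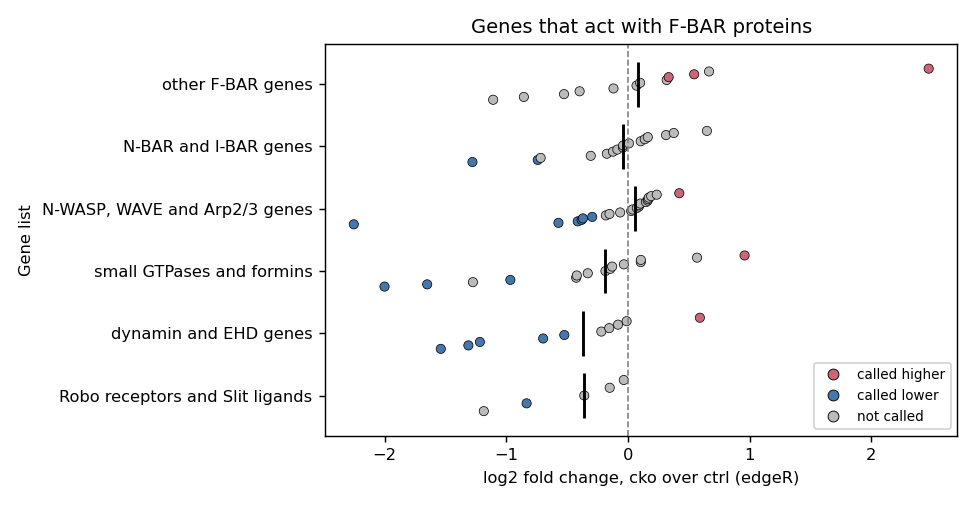
Fitted log2 fold change, cko over ctrl, of the 80 tested partner genes, other F-BAR genes among them, 1 point a gene, by list. A black bar marks each list's median and a dashed line the median of all tested genes, -0.0026 (points are offset vertically for legibility). The dynamin and EHD list, with 5 of 10 genes called lower (2 without cko replicate 2), has a median of -0.37, and the other F-BAR list, with 3 of 12 called higher (1 without cko replicate 2), has a median of 0.08.

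A list of 7 tested genes shares the growth arrest specific name with *Gas7*, though *Gas2l1* and *Gas2l3* carry it only as relatives of *Gas2*. *Gas2l3* was called higher (log2 fold change 0.85, edgeR adjusted p = 0.0106). *Gas5*, a noncoding host of snoRNAs, was called lower (-0.41, edgeR adjusted p = 0.0162). Both calls were lost without cko replicate 2 (0.76 and -0.39) or 3 (0.82 and -0.41). Proliferation genes were higher in the same libraries as *Gas7*: 6 of 6 were called higher, among them *Ccnb1* (1.33, edgeR adjusted p = 0.00145) and *Mki67* (1.30, edgeR adjusted p = 0.00192), and their summed level was 668 and 739 normalized CPM in ctrl and 1416 to 1858 in cko. Their part in the *Gas7* difference was not tested.

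Markers of other cell types also differed between the genotypes, and in bulk RNA fewer cells of a type and less RNA per cell cannot be told apart. Of 10 oligodendrocyte lineage markers, 5 fell, among them *Myrf* (log2 fold change -2.90, edgeR adjusted p = 0.000146), and 2 rose, *Olig1* (0.63, edgeR adjusted p = 0.0108) and *Olig2* (0.38, edgeR adjusted p = 0.0444). Without cko replicate 2 neither of the last 2 was called (0.58 and 0.33). The summed level of the 10 markers overlapped, at 3217 and 3840 normalized CPM in ctrl and 3512 to 3765 in cko. Of 7 astrocyte markers 4 fell, among them *S100b* (-2.31, edgeR adjusted p = 0.00343) and *Slc1a2* (-1.03, edgeR adjusted p = 0.0118, -0.94 without cko replicate 2 and -0.93 without 3), and their summed level was 3037 and 2001 in ctrl and 833 to 1533 in cko. The lower calls of this list numbered 1 of 7 without cko replicate 2 or 3, when *Slc1a2*, *Aldoc* and *Gja1* were not called. The sign of *Aldh1l1* rested on the ctrl library used, at 0.38 without ctrl replicate 1 and -0.58 without ctrl replicate 3. *Gfap*, a large part of the sum in ctrl 1, stood at 1008 and 178 normalized CPM in ctrl and 298, 86.7 and 122 in cko. Both genes were named after their values were seen. Of 10 neuron markers, 8 could be tested: *Elavl4* (1.30, edgeR adjusted p = 0.000668) and *Syt1* (1.57, edgeR adjusted p = 0.00257) rose and *Dcx* (-1.51, edgeR adjusted p = 0.00486) fell, with a summed level of 1220 to 1347 in ctrl and 1339 to 1374 in cko. Of 9 microglia and macrophage markers 0 passed the filter, *Cx3cr1*, *Tmem119* and *Itgam* were at 0 in every library, and the sum was 0.230 to 1.44 normalized CPM. Of 8 endothelial and mural markers, 7 were counted and 3 tested, 0 were called by edgeR or DESeq2 and 0 had an unadjusted p under 0.05 in edgeR, *Cdh5* was at 0 in every library, and the sum was 5.94 to 7.63. The part of these cells in the differences of the F-BAR genes was not tested.

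The 5 genes with profiles most like that of *Gas7* were found by the Euclidean distance between mean-centred log2 CPM over the 5 libraries, among 14342 genes, as a description. They were *Marveld3* (distance 0.216), Gm11650 (0.243), *Syt1* (0.283), *Enpp3* (0.292) and *Rassf4* (0.292). *Syt1*, the calcium sensor of synaptic vesicle release, was the most abundant of these, at 7.30 and 10.6 normalized CPM in ctrl and 26.7, 28.1 and 24.7 in cko. *Marveld3* and Gm11650 were low, with 9 to 31 and 17 to 69 counts per library.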

How the data were processed

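RNA-seq counts per gene were used from NSCs of miR-151 cko and ctrl embryos. The authors filtered reads, aligned them with HISAT2 and deposited raw counts without normalization. The paper names mm10 as the genome and the submitters' processing notes GRCm39. The counting tool, the annotation used for counting and the use of strand are not given in the sources used here. The labels and the paper also name different RNA kits and media. Of the deposited columns, ctrl 2 holds another kind of value, the rounded-up mean of the other 2 ctrl columns, and was left out.

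The members and all gene lists were chosen with earlier results of these data known; the lists were picked by function. Counts were analysed with edgeR 4.0.16 in R 4.3.3: filterByExpr by genotype, TMM, and the quasi-likelihood test of cko 1 to 3 against ctrl 1 and 3, without a block. Calls had a Benjamini-Hochberg adjusted p under 0.05. Alternatives were DESeq2 1.42.0, median-of-ratios scaling, other filters, each library left out, a replicate block, all 6 columns and the study's threshold. The steps were tested on simulated data. Gene positions came from GENCODE M21, which matched 31829 of 32493 gene IDs, and the 664 unmatched IDs held 0.223% to 0.342% of a library's counts. *Mtss2* was matched to its older symbol *Mtss1l*. Level per length divides TMM-normalized CPM by the union of a gene's exons in kilobases. Errors are SD over libraries or SE of the fit, and floors cover counting error only.

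The text names all members, up to 2 called genes per list and direction with the smallest p, the listed binding partners of members, and the 5 genes nearest *Gas7* in profile. A result that this rule gives is not reported here. A planned search for miR-151 seed matches was not run here, and figures were drawn with matplotlib 3.10.9.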

Additional observations from a re-analysis of the deposited data

How the results depend on the processing

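The F-BAR members kept the sign of their log2 fold change in every alternative run, which is no support, since the list was chosen by this contrast. Over all genes, 1314 were called higher and 1432 lower, and these counts were 2865 and 2794 with all 6 columns, 399 and 696 at the study's threshold, and 317 to 1812 and 416 to 2062 with each replicate left out. With no filter 2237 were called lower. Of the members, 1 was called higher and 3 lower. With all 6 columns 2 were called higher (*Fnbp1l* was added), at the study's threshold 1 was called lower, and with each replicate left out 1 to 2 were called higher and 1 to 4 lower. Of the partner genes, 6 were called higher and 17 lower, against 13 higher with all 6 columns, 2 and 8 at the study's threshold, and 2 to 9 and 7 to 22 with each replicate left out. These settings change the number of libraries or of genes called by construction, and other causes were not tested.

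With the replicate block, 918 genes were called higher and 1065 lower, among them 1 and 2 members (*Srgap3* was lost at a log2 fold change of -0.31) and 5 and 17 partner genes. The labels give a number only, and the deviations from the group means correlated by 0.143 for the ctrl 1 and cko 1 pair and by 0.0507 for the ctrl 3 and cko 3 pair over 16710 genes. Unmatched pairs ranged from -0.143 (ctrl 3 and cko 1) to 0.1165 (ctrl 3 and cko 2). With 2 ctrl libraries the deviations of ctrl 1 and ctrl 3 mirror each other, so these values are not independent and cannot show a pairing. Leaving out a ctrl replicate leaves 1 ctrl library, which is assumed to vary like the cko libraries. The 2 ctrl libraries, the uncounted *Mir151* and the unknown counting annotation limit all values.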
